A study of Mus musculus with 24 samples.

Results

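Amino acid transporters of 7 solute carrier families (Slc1, Slc3, Slc6, Slc7, Slc36, Slc38 and Slc43) were described across 8 populations of sorted mouse mammary cells. A gene was included by its symbol alone, whatever its level, and 62 of the 19937 genes measured by a probe set with a single gene symbol belonged to the families. They were 7 Slc1, 2 Slc3, 20 Slc6, 15 Slc7, 4 Slc36, 11 Slc38 and 3 Slc43 genes. The symbols Slc7a6os and Slc6a19os also match the naming pattern, but they name genes on the opposite strand of a transporter gene and were counted apart. The families are defined by sequence and hold some carriers of other substrates, such as creatine, monoamines and, for human SLC43A3, nucleobases.

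The mice had a mixed FVB/C57BL6 background, and all of them carried Lgr5-creERT2, in which Lgr5 drives a Cre recombinase that tamoxifen switches on. Mutant mice also carried a PIK3CA H1047R transgene, an activating mutant of the catalytic PI3K subunit p110α, and control mice did not. Both genotypes were taken 4 weeks after tamoxifen, and age was not given. Cells negative for the leukocyte antigen CD45 were gated as basal (CD24 low, Sca1-) or luminal (CD24 high, Sca1- or Sca1+). They were further gated by GFP, which marked cells expressing Lgr5, the transgene or both. The mutant groups were mutant basal GFP+, mutant basal GFP-, mutant luminal Sca1- GFP+ and mutant luminal Sca1+ GFP+ cells. The control groups were control basal GFP+, control basal GFP-, control luminal Sca1- GFP- and control luminal Sca1+ GFP- cells. Genotype and GFP state therefore go together in the luminal groups and cannot be told apart there. In the basal gate GFP marks Lgr5 alone in control mice, and Lgr5, the transgene or both in mutant mice. A comparison of basal GFP+ cells between genotypes therefore mixes genotype with what GFP marks. Mutant basal GFP- cells came from mutant mice but lacked the GFP that marks the transgene. Each group had 3 arrays from 3 independent sortings, each on glands pooled from 2 to 3 estrus-synchronised mice. The model reaches only cells in which the Lgr5-driven Cre acted.

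Amino acid transporters supply cells with substrates for protein synthesis and also inform growth control. The heavy chain encoded by Slc3a2 pairs with light chains of the Slc7 family, and its complex with the Slc7a5 product imports leucine, a signal that activates mTORC1 downstream of PI3K. Lactating mammary epithelium takes up amino acids in quantity to make milk protein, and sodium-coupled, cationic and exchange carriers are all known to take part. Several carriers, among them Slc7a11, Slc7a5, Slc3a2 and Slc38a2, are known targets of the transcription factor ATF4, which amino acid shortage activates.

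The values were log2 intensities of Affymetrix mouse Gene 1.0 ST arrays, so a difference of 1 is a 2-fold change. Levels of different probe sets are not comparable, and each gene was compared only with itself between groups. Over 24 arrays 19 members had a mean at or above 4.66, the median of all gene means, and 43 members lay under it and are called dim here. Differences were tested with limma in 1 fit of all 24 arrays, and a gene was called when its Benjamini-Hochberg adjusted p over all 19937 genes was under 0.05. The control basal GFP+ arrays stood apart: their correlations with each other were 0.93 to 0.94, against 0.95 to 0.98 within the other groups, and their dim genes averaged 4.07, against 3.94 to 4.02. Basal markers averaged 11.12 to 11.54 per array in the basal gates and luminal markers 11.34 to 11.66 in the luminal gates, and all 6 leukocyte markers were dim in every group. Fibroblast markers averaged 6.12 to 6.38 in mutant and 5.19 to 5.40 in control basal GFP+ arrays. They averaged 4.91 to 5.29 in mutant and 5.96 to 6.02 in control luminal Sca1- arrays. The part of fibroblast RNA in the values below was not tested. Luminal markers in the basal gates still averaged 8.04 to 9.63, and basal markers in the mutant luminal Sca1- arrays averaged 7.20 to 7.85, against 5.47 to 5.60 in the control luminal Sca1- arrays.

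**Figure D1:**
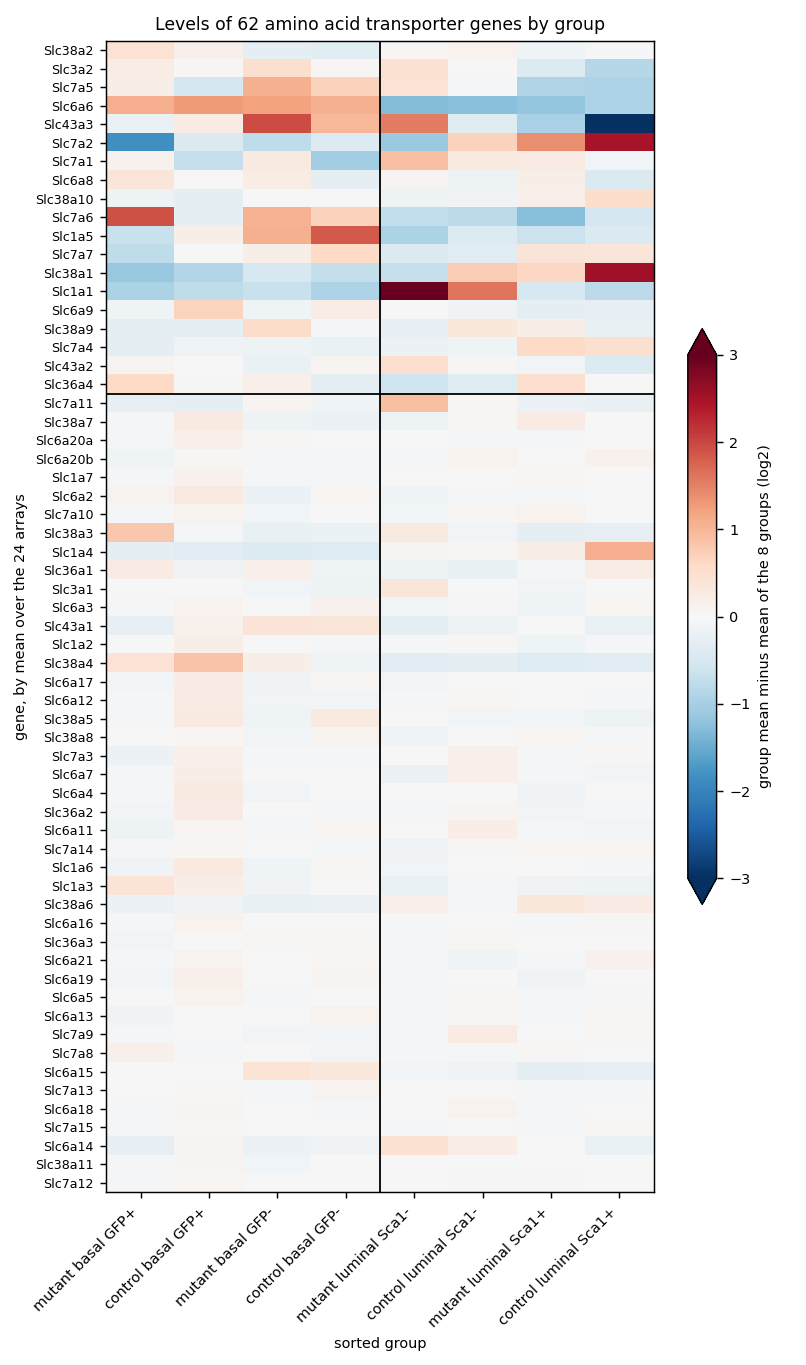
Level of the 62 amino acid transporter genes in each of the 8 sorted groups, as the group mean of 3 arrays minus the gene's own mean over the groups (log2, red above and blue below). The horizontal line parts the 19 genes that were not dim from the 43 dim ones. Slc1a1 stands out in the luminal Sca1- columns, Slc38a1 and Slc7a2 in the luminal Sca1+ columns, and Slc6a6 in the basal columns; Slc7a6 is high in the basal columns other than control basal GFP+.

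Of the 62 members, 23 (37.1%) were called in at least 1 of the 12 comparisons of group pairs, beside 30.7% of all genes. Among the 19 members that were not dim, 13 (68.4%) were called in at least 1 pair, beside 42.3% of the 9969 genes at or above the same level. The range of the 8 group means exceeded 1 on the log2 scale in 16 members, and its median was 0.44 over the members, beside 0.52 over all genes. These counts describe the members and were not tested as a set. The GABA transporter genes Slc6a11 and Slc6a13 and the dopamine transporter gene Slc6a3 were dim.

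Upstream sequences are shown for 3 genes whose levels are described below: Slc7a6 differed most clearly between genotypes, Slc1a1 separated the luminal Sca1- cells, and Slc7a11 is the textbook ATF4 target. They were chosen after the values were seen. The sequences are the 250 bases before a transcript start in RefSeq (GRCm38.p6), on the gene's strand, at chr8:106168604-106168853 (+) for Slc7a6, chr19:28834885-28835134 (+) for Slc1a1 and chr3:50443614-50443863 (-) for Slc7a11. Capitals mark matches to 3 motifs searched on both strands: TGATGNAA, an amino acid response element, TTCNNNGAA, a STAT site, and GTAAACA, a FOXO site.
Slc7a6: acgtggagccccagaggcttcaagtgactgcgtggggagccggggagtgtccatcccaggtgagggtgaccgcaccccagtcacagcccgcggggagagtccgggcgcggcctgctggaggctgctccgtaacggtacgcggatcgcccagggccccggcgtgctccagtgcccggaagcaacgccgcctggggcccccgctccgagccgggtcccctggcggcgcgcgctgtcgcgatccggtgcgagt
Slc1a1: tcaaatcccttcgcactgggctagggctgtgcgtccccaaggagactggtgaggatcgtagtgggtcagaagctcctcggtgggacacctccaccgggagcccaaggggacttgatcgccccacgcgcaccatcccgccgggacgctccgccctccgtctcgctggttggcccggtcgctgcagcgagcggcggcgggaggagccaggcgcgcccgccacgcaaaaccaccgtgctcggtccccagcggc
Slc7a11: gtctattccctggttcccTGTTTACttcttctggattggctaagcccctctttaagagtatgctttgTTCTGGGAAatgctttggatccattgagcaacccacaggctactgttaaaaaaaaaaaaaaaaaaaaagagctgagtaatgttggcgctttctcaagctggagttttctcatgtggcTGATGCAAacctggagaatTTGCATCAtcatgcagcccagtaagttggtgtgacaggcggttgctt
The Slc7a11 sequence held the amino acid response element 66 to 59 bases before the start and, on the opposite strand, 47 to 40 bases before it. It also held TTCNNNGAA at 183 to 175 bases and GTAAACA, on the opposite strand, at 232 to 226 bases before the start. The Slc7a6 and Slc1a1 windows held none of the 3 motifs, and their GC contents were 74% and 70.4%, beside 43.2% for Slc7a11. Among 32851 mouse promoters of the same length 3.45% held TGATGNAA, 7.02% held TTCNNNGAA and 3.17% held GTAAACA. Of the 62 members 45 had a listed promoter, 66 promoters in all, of which 4, 4 and 2 held the motifs in that order. TGATGNAA was found for Slc6a21, Slc7a11 and Slc7a7, and TTCNNNGAA for Slc1a3, Slc38a9, Slc7a1 and Slc7a11. A match describes letters only.

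Slc1a1, the carrier of glutamate and cysteine known as EAAC1, was high in luminal Sca1- cells and dim elsewhere. In control mice it had 7.43, 5.48 and 7.25 in luminal Sca1- arrays, against 4.07, 4.29 and 4.21 in basal GFP- arrays, a difference of 2.53 ± 0.35 (SE; adjusted p = 6.93e-05, limma). In mutant mice it had 8.50, 7.64 and 8.13 in luminal Sca1- arrays, against 4.23, 4.10 and 4.19 in basal GFP+ arrays, a difference of 3.92 ± 0.35 (adjusted p = 4.02e-07). All luminal Sca1- arrays of either genotype lay above all basal arrays. In luminal Sca1+ cells it stayed between 4.30 and 5.01 in mutant arrays and between 4.09 and 4.63 in control arrays. Luminal Sca1+ minus Sca1- was -3.46 ± 0.35 in mutant mice (adjusted p = 7.86e-06) and -2.40 ± 0.35 in control mice (adjusted p = 0.000446). Control luminal Sca1- replicate 2 was the low array of its group.

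Slc38a1 and Slc7a2 showed the opposite order of the luminal gates. Slc38a1 encodes SNAT1, a sodium-coupled carrier of glutamine, and Slc7a2 encodes CAT-2, a carrier of arginine, lysine and ornithine. In control mice Slc38a1 had 7.59, 8.11 and 7.40 in luminal Sca1+ arrays, against 5.57, 6.71 and 5.43 in luminal Sca1- arrays and 4.39, 4.84 and 4.10 in basal GFP- arrays. These 3 groups did not overlap. Luminal Sca1+ cells exceeded basal GFP- cells by 3.26 ± 0.35 (adjusted p = 2.02e-06) and luminal Sca1- cells by 1.80 ± 0.35 (adjusted p = 0.00494). The difference of luminal Sca1- from basal GFP- cells, 1.47 ± 0.35 (adjusted p = 0.00979), was not called without control luminal Sca1- replicate 2 (1.06, adjusted p = 0.0658). Bulk values do not separate fewer cells of a type from less RNA per cell.

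Slc7a2 had 10.21, 9.90 and 10.28 in control luminal Sca1+ arrays, against 7.79, 7.27 and 6.72 in control basal GFP- arrays, a difference of 2.87 ± 0.39 (adjusted p = 3.57e-05). It had 8.54, 7.69 and 8.81 in control luminal Sca1- arrays, so that Sca1+ minus Sca1- was 1.78 ± 0.39 (adjusted p = 0.0134). That call was lost without control luminal Sca1- replicate 2 (1.46, adjusted p = 0.0784) or Sca1+ replicate 3 (1.71, adjusted p = 0.0566). In mutant mice Slc7a2 had 8.76, 9.11 and 9.27 in luminal Sca1+ arrays, against 6.44, 6.02 and 7.18 in luminal Sca1- and 5.64, 6.28 and 5.53 in basal GFP+ arrays. Mutant luminal Sca1+ cells exceeded basal GFP+ cells by 3.23 ± 0.39 (adjusted p = 1.06e-05) and luminal Sca1- cells by 2.50 ± 0.39 (adjusted p = 0.000852). Hormone-sensing markers averaged 8.05 to 9.21 in mutant and 8.66 to 9.15 in control luminal Sca1+ arrays, above every other group.

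Slc38a1 was also highest in the luminal Sca1+ gate of mutant mice, at 6.61, 4.999 and 5.75, against 4.55, 4.32 and 4.53 in luminal Sca1- arrays and 4.13, 3.94 and 3.96 in basal GFP+ arrays. The difference from basal GFP+ cells was 1.77 ± 0.35 (adjusted p = 0.00179). The difference from luminal Sca1- cells was 1.32 ± 0.35 (adjusted p = 0.0404). It lost its call without any 1 of mutant luminal Sca1- replicates 1, 2 and 3 or Sca1+ replicates 1 and 3 (adjusted p = 0.094 to 0.203), and under quantile normalization (adjusted p = 0.0597). It was also lost with the mean of the gene's probe sets (0.67, adjusted p = 0.0624), which lowered the difference itself.

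**Figure D2:**
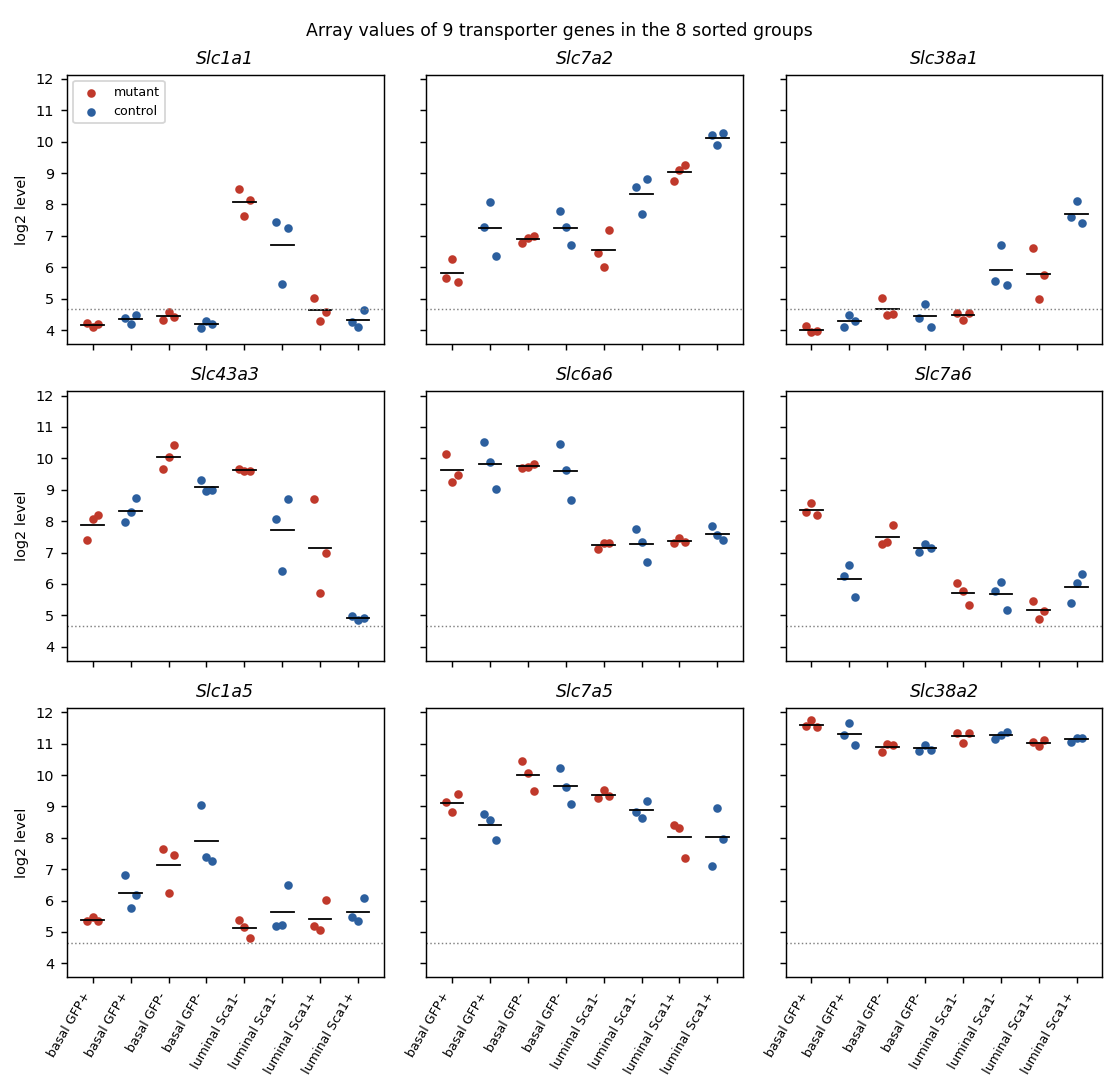
Log2 level of selected transporter genes on each of the 24 arrays, by sorted group, with group means as bars and the dim threshold of 4.66 as a dotted line. Mutant and control points of Slc7a6 are apart in the basal GFP+ cells, and the luminal Sca1+ points of Slc38a1 are lower in mutant than in control cells.

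Basal cells were marked by Slc6a6, the taurine transporter gene. It had 10.15, 9.25 and 9.46 in mutant basal GFP+, 10.53, 9.89 and 9.03 in control basal GFP+, 9.70, 9.72 and 9.82 in mutant basal GFP- and 10.46, 9.64 and 8.67 in control basal GFP- arrays. The luminal arrays lay between 7.10 and 7.46 in mutant and between 6.71 and 7.86 in control mice, below every basal array. Luminal Sca1- minus basal was -2.38 ± 0.39 in mutant (adjusted p = 0.000373) and -2.32 ± 0.39 in control mice (adjusted p = 0.000462). Luminal Sca1+ minus basal was -2.25 ± 0.39 in mutant (adjusted p = 0.000509) and -1.99 ± 0.39 in control mice (adjusted p = 0.0014). In these differences the basal cells were GFP+ in mutant and GFP- in control mice. No comparison of genotypes called it.

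Slc1a5, Slc7a5 and Slc3a2, which act together in the exchange of glutamine for leucine, were all called lower in luminal Sca1+ than in basal GFP- cells of control mice, and Slc1a5 also in luminal Sca1- cells. Slc1a5, the glutamine exchanger ASCT2, had 5.20, 5.23 and 6.51 in control luminal Sca1- and 5.47, 5.34 and 6.07 in control luminal Sca1+ arrays, against 9.04, 7.38 and 7.27 in control basal GFP- arrays. Luminal Sca1- minus basal GFP- was -2.25 ± 0.47 (adjusted p = 0.00371), and luminal Sca1+ minus basal GFP- was -2.27 ± 0.47 (adjusted p = 0.0025). Slc7a5, the light chain LAT1, had 7.11, 8.95 and 7.97 in control luminal Sca1+ arrays, against 10.21, 9.63 and 9.07 in control basal GFP- arrays, a difference of -1.63 ± 0.40 (adjusted p = 0.00956). It was not called without control luminal Sca1+ replicate 1 (-1.18, adjusted p = 0.0651) or basal GFP- replicate 1 (-1.34, adjusted p = 0.0542). Its heavy chain gene Slc3a2 had 9.003, 9.62 and 8.73 in control luminal Sca1+ arrays, against 10.51, 9.89 and 9.60 in control basal GFP- arrays, where the groups overlapped. The difference of -0.88 ± 0.25 (adjusted p = 0.0236) was lost without control luminal Sca1+ replicate 1 or 3 or basal GFP- replicate 1 (-0.82 to -0.63, adjusted p = 0.0798 to 0.127). Control luminal Sca1- minus basal GFP- cells differed by -0.75 in Slc7a5 (adjusted p = 0.307) and by -0.03 in Slc3a2 (adjusted p = 0.968), and both genes had overlapping groups there.

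In mutant mice none of these 3 genes was called between luminal and basal GFP+ cells. Slc7a5 in luminal Sca1+ minus basal GFP+ cells was -1.10 (adjusted p = 0.105), and Slc3a2 was -0.63 (adjusted p = 0.143). Both were called with array weights (-1.05, adjusted p = 0.0478 for Slc7a5, and -0.62, adjusted p = 0.0411 for Slc3a2). Slc1a5 was -0.28 (adjusted p = 0.867) in luminal Sca1- and 0.03 (adjusted p = 0.99) in luminal Sca1+ cells. The basal counterpart is GFP+ in mutant mice and GFP- in control mice, so these values are not a comparison of genotypes.

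Slc43a3 spanned the widest range of group means among the members, 5.14 on the log2 scale. Human SLC43A3 is a nucleobase transporter. It had 4.97, 4.85 and 4.91 in control luminal Sca1+ arrays, against 8.08, 6.40 and 8.71 in control luminal Sca1- arrays and 9.30, 8.97 and 9.003 in control basal GFP- arrays. The 3 groups did not overlap, and luminal Sca1+ minus basal GFP- was -4.18 ± 0.57 (adjusted p = 3.51e-05). Luminal Sca1+ minus Sca1- was -2.82 ± 0.57 in control mice (adjusted p = 0.0067). In mutant mice Slc43a3 had 8.71, 5.70 and 6.99 in luminal Sca1+ arrays, against 9.65, 9.61 and 9.61 in luminal Sca1- arrays, a difference of -2.50 ± 0.57 (adjusted p = 0.0164). That call was lost without mutant luminal Sca1- replicate 1 or 2 or Sca1+ replicate 2 or 3 (-2.50 to -1.78, adjusted p = 0.0515 to 0.0957). Progenitor markers averaged 6.11 to 8.33 in the mutant luminal Sca1+ arrays, against 5.56 to 5.89 in control luminal Sca1+ arrays, and their part in these values was not tested.

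Slc7a11, the cystine and glutamate exchanger xCT, separated the luminal gates in mutant mice. It had 5.48, 5.03 and 6.05 in mutant luminal Sca1- arrays, against 4.09, 4.72 and 4.28 in mutant basal GFP+ arrays, a difference of 1.15 ± 0.24 (adjusted p = 0.00435). All 3 luminal Sca1- arrays lay above the basal ones. Mutant luminal Sca1+ arrays had 4.49, 4.66 and 4.16, and Sca1+ minus Sca1- was -1.08 ± 0.24 (adjusted p = 0.0158). That call was lost without mutant luminal Sca1- replicate 1 or 3 or Sca1+ replicate 3 (adjusted p = 0.0509 to 0.0971). In control mice Sca1+ minus Sca1- was -0.28 (adjusted p = 0.656), and the difference between the genotypes in this effect was -0.80 ± 0.34 (adjusted p = 0.636).

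Slc3a2 and Slc7a5 were lower in luminal Sca1+ than in luminal Sca1- arrays without a call. Slc3a2 differed by -0.87 in mutant (adjusted p = 0.0654) and -0.85 in control mice (adjusted p = 0.072), and Slc7a5 by -1.35 in mutant (adjusted p = 0.076) and -0.87 in control mice (adjusted p = 0.311). With array weights Slc3a2 was called in both genotypes (adjusted p = 0.0201 in mutant and 0.0387 in control mice), and with replicate number as a block likewise (adjusted p = 0.0277 and 0.032). With only the compared groups in the fit it was called in neither (adjusted p = 0.066 in mutant and 0.189 in control mice). In mutant mice array weights gave a call of Slc7a5 (-1.27, adjusted p = 0.0474), and so did a fit restricted to brighter genes (-1.35, adjusted p = 0.043).

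The comparisons of luminal with basal cells called 7 members (3 higher, 4 lower) in mutant luminal Sca1- minus basal GFP+ cells, where 7.86% of all genes were called (3.62% higher and 4.24% lower). They called 5 members (2 higher, 3 lower) in control luminal Sca1- minus basal GFP- cells, where 9.83% of all genes were called (4.93% higher and 4.9% lower). Luminal Sca1+ minus basal called 8 members (3 higher, 5 lower) in mutant mice and 10 (3 higher, 7 lower) in control mice, beside 9.72% of all genes in mutant mice (4.73% higher and 4.99% lower) and 13.1% in control mice (7.35% higher and 5.77% lower). Luminal Sca1+ minus Sca1- called 5 members (2 higher, 3 lower) in mutant mice and 4 (2 higher, 2 lower) in control mice, beside 3.66% of all genes in mutant mice (1.81% higher and 1.85% lower) and 3.69% in control mice (2.08% higher and 1.61% lower). Slc1a1, Slc6a6 and Slc7a6 were called in the Sca1- comparison of both genotypes (3 of 7 mutant calls, 42.9%, and 60% of the control calls). Slc38a1, Slc6a6, Slc7a2 and Slc7a6 were called in the Sca1+ comparison of both (50% of the mutant and 40% of the control calls). With only the compared groups in the fit, the calls fell to 1 of 5 and 4 of 10 in control luminal Sca1- and Sca1+ minus basal cells, 4 of 8 in mutant Sca1+ minus basal cells, 2 of 5 in mutant Sca1+ minus Sca1- cells, and 0 of 4 in control Sca1+ minus Sca1- cells.

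**Figure D3:**
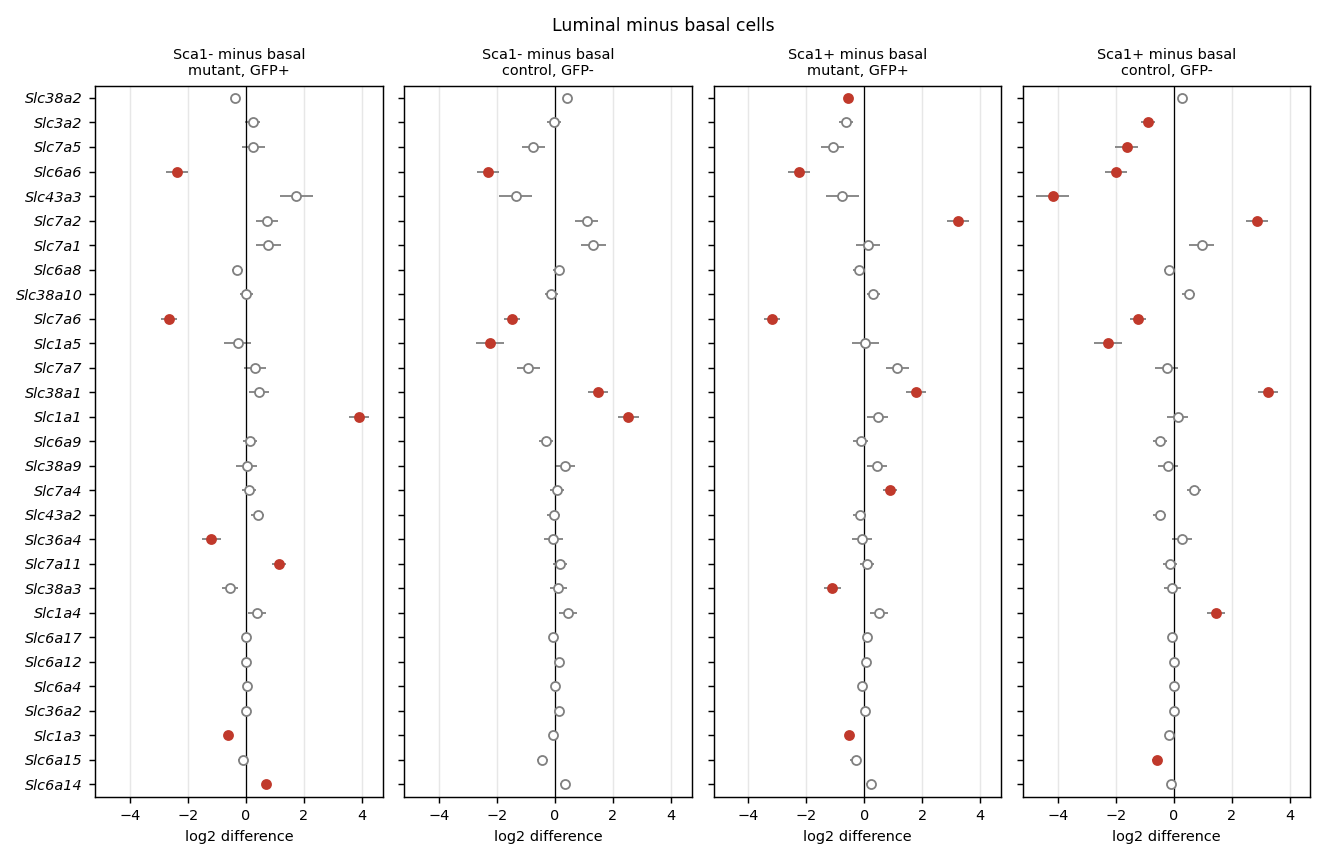
Log2 differences of luminal from basal cells within each genotype, with standard errors, for the transporter genes that were not dim and the dim ones called in any pair. The basal cells were GFP+ in mutant and GFP- in control mice. Filled points passed the adjusted p threshold of 0.05, and points right of 0 are higher in luminal cells. Slc1a1, Slc38a1 and Slc7a2 lie to the right and Slc6a6 and Slc7a6 to the left in the luminal minus basal panels in which they are filled.

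The calls of Slc7a6 and Slc38a2 between luminal and basal cells are described below. The other remaining calls between luminal and basal cells concerned carriers near or under the dim threshold. Slc1a4, the alanine, serine and cysteine carrier ASCT1, had 5.25, 6.44 and 4.70 in control luminal Sca1+ arrays, against 3.98, 4.09 and 3.93 in control basal GFP- arrays, a difference of 1.46 ± 0.31 (adjusted p = 0.00283). Slc7a4, a member of the cationic subfamily, had 5.90, 5.29 and 4.91 in mutant luminal Sca1+ arrays, against 4.61, 4.42 and 4.44 in mutant basal GFP+ arrays, a difference of 0.87 ± 0.24 (adjusted p = 0.0234). The call of Slc7a4 was lost without mutant basal GFP+ replicate 2 or 3 or luminal Sca1+ replicate 1 or 2 (0.60 to 0.91, adjusted p = 0.0515 to 0.142). Slc6a14, the broad-range carrier ATB0,+, was called at a dim level: it had 4.00, 4.14 and 4.26 in mutant luminal Sca1- arrays, against 3.42, 3.40 and 3.46 in mutant basal GFP+ arrays (0.71 ± 0.16, adjusted p = 0.00656).

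Among lower calls, the proton-coupled carrier gene Slc36a4 had 4.38, 3.97 and 3.90 in mutant luminal Sca1- arrays, against 5.16, 6.21 and 4.45 in mutant basal GFP+ arrays (-1.19 ± 0.34, adjusted p = 0.0377). Its call was lost without mutant basal GFP+ replicate 1 or 2 or luminal Sca1- replicate 2 or 3 (-1.24 to -0.72, adjusted p = 0.0773 to 0.22). Slc38a3, the glutamine carrier SNAT3, had 4.10, 4.10 and 4.07 in mutant luminal Sca1+ arrays, against 6.08, 4.90 and 4.60 in mutant basal GFP+ arrays (-1.10 ± 0.29, adjusted p = 0.0188). Mutant basal GFP+ replicate 1 was the high array, and the difference was -0.66 (adjusted p = 0.11) without it; the call was also lost without luminal Sca1+ replicate 2 or 3 (adjusted p = 0.0543 and 0.0578).

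The glutamate carrier gene Slc1a3 was dim and was called lower in mutant luminal Sca1- (-0.61 ± 0.15, adjusted p = 0.011) and luminal Sca1+ cells (-0.51 ± 0.15, adjusted p = 0.0288) than in mutant basal GFP+ cells. It had 3.76, 3.86 and 4.01 in luminal Sca1- and 3.92, 3.98 and 4.02 in luminal Sca1+ arrays, against 4.30, 4.94 and 4.23 in basal GFP+ arrays, of which replicate 2 was the high array. The Sca1- call was lost without basal GFP+ replicate 2 (-0.39, adjusted p = 0.0527) or luminal Sca1- replicate 1 (-0.56, adjusted p = 0.0565). The Sca1+ call was lost without basal GFP+ replicate 2 (-0.29, adjusted p = 0.166) or any 1 luminal Sca1+ array, replicates 1, 2 and 3 (adjusted p = 0.0614 to 0.0897). Slc6a15, a carrier of branched-chain amino acids and proline, had 3.47, 3.54 and 3.61 in control luminal Sca1+ arrays, against 3.67, 3.94 and 4.74 in control basal GFP- arrays (-0.58 ± 0.19, adjusted p = 0.0496). Its call was lost without basal GFP- replicate 2 (-0.67, adjusted p = 0.0515) or 3 (-0.27, adjusted p = 0.255) or any 1 of luminal Sca1+ replicates 1, 2 and 3 (adjusted p = 0.0844 to 0.135).

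The clearest difference between genotypes was in Slc7a6. It encodes y+LAT2, a light chain that pairs with the Slc3a2 product and exchanges arginine for glutamine or leucine. It had 8.28, 8.58 and 8.21 in mutant basal GFP+ arrays, against 6.27, 6.61 and 5.59 in control basal GFP+ arrays. The groups did not overlap, and Slc7a6 rose by 2.20 ± 0.28 in mutant cells, 4.6-fold (adjusted p = 0.000122, limma). The call held in all 13 alternative settings, with differences of 1.20 to 2.43 and adjusted p-values up to 0.0389. The smallest difference came from comparing with control basal GFP- cells, which had 7.03, 7.28 and 7.15, so that the mutant basal GFP+ cells exceeded both control basal groups (1.20, adjusted p = 0.0235).

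In mutant basal GFP- cells Slc7a6 had 7.27, 7.33 and 7.88, 0.34 above the control basal GFP- cells (95% interval -0.26 to 0.94, adjusted p = 0.905). The effect of the mutant in GFP+ cells exceeded that in GFP- cells by 1.86 ± 0.40 (adjusted p = 0.0294), the 1 member called in a difference of effects in which 1.07% of all genes were called (0.772% higher and 0.301% lower). This difference of effects was not called under quantile normalization (1.76, adjusted p = 0.053), with only the compared groups in the fit, or without control basal GFP- replicate 2 or 3, control GFP+ replicate 3, mutant GFP- replicate 1 or 2, or mutant GFP+ replicate 1 or 2 (1.58 to 1.90, adjusted p = 0.0505 to 0.079). GFP marks Lgr5 alone in control basal cells, and mutant basal GFP- cells lacked the GFP that marks the transgene. This difference of effects therefore mixes genotype with what GFP marks. In luminal Sca1- cells Slc7a6 had 6.02, 5.76 and 5.33 in mutant arrays, against 5.77, 6.05 and 5.17 in control arrays, and the groups overlapped. The effect there fell short of that in basal GFP+ cells by -2.16 ± 0.40 (adjusted p = 0.0102), where 1.03% of all genes were called (0.381% higher and 0.647% lower). The gene was lower in luminal than in basal GFP+ cells of mutant mice, by -2.65 ± 0.28 in Sca1- (adjusted p = 3.81e-06) and -3.19 ± 0.28 in Sca1+ cells (adjusted p = 2.39e-07). Control luminal cells were compared with basal GFP- cells instead. They differed by -1.49 ± 0.28 in Sca1- (adjusted p = 0.00175) and -1.24 ± 0.28 in Sca1+ cells (adjusted p = 0.00579). The control basal GFP+ arrays overlapped the control luminal Sca1- arrays in Slc7a6. The cDNA that was labelled was double-stranded, so the signal is not assigned to a strand. The neighbouring gene Slc7a6os had 7.79, 8.16 and 8.45 in mutant basal GFP+ arrays, against 7.91, 8.04 and 7.85 in control basal GFP+ arrays, and the groups overlapped.

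Mutant minus control in basal GFP+ cells called 7 members, 1 higher and 6 lower, where 12.6% of all genes were called (4.74% higher and 7.81% lower). All mutant arrays lay above or all below the control arrays in 35.4% of all genes. The median difference was -0.15 over the 62 members, beside -0.10 over all genes, and 0.000318 over the 19 members that were not dim, beside 0.08 over the genes that were not dim. Beside Slc7a6, the calls were lower ones, and of these Slc7a2 and Slc6a9 were not dim. Slc7a2 had 5.64, 6.28 and 5.53 in mutant arrays, against 7.28, 8.08 and 6.36 in control arrays, and the groups did not overlap. It fell by 1.42 ± 0.39 on the log2 scale (adjusted p = 0.0268), but the call was lost without mutant replicate 1 or 3 or control replicate 1 or 2 (-1.40 to -1.0, adjusted p = 0.065 to 0.0848) and against control basal GFP- cells (-1.44, adjusted p = 0.0508). Slc6a9, the glycine transporter GlyT1, had 4.71, 5.01 and 5.07 in mutant arrays, against 6.18, 5.86 and 5.14 in control arrays (-0.79 ± 0.25, adjusted p = 0.0431). Its call was lost without mutant replicate 1, 2 or 3 or control replicate 1 or 2 (-0.87 to -0.57, adjusted p = 0.0696 to 0.165), under quantile normalization (adjusted p = 0.0571), in the fit to brighter genes alone (adjusted p = 0.053) and against control basal GFP- cells (-0.35, adjusted p = 0.517).

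The other 4 lower calls were dim in both groups: the serotonin transporter gene Slc6a4 (-0.31), Slc6a17 (-0.34), which encodes a synaptic vesicle carrier, the betaine transporter gene Slc6a12 (-0.29) and the proton-coupled carrier gene Slc36a2 (-0.34). Their mutant arrays lay between 4.06 and 4.27 and their control arrays between 4.28 and 4.70. All dim genes together averaged 3.94 in these mutant and 4.07 in these control arrays, a shift in the same direction. Against control basal GFP- cells none of the 4 was called (differences of -0.14 to 0.02), and under quantile normalization none was called (adjusted p = 0.0849 to 0.182). Slc36a2, Slc6a12 and Slc6a17 also lost their calls without control GFP+ replicate 1 or 3 or mutant replicate 1 or 2, and Slc36a2 and Slc6a17 without mutant replicate 3 (adjusted p = 0.0553 to 0.111).

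**Figure D4:**
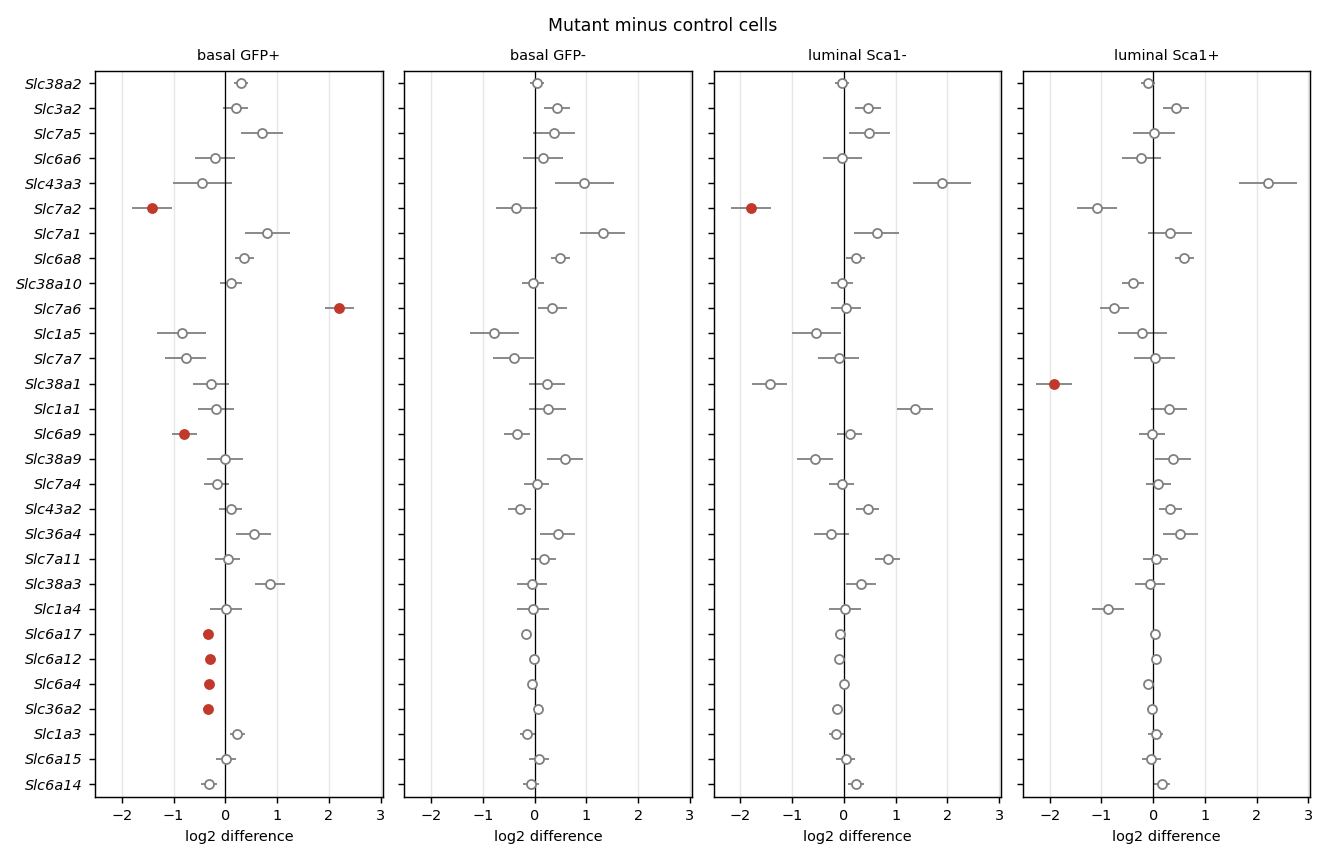
Log2 differences between mutant and control cells in each of the 4 gates, with standard errors, for the transporter genes that were not dim and the dim ones called in any pair. Filled points passed the adjusted p threshold of 0.05. Slc7a6 lies at 2.20 in basal GFP+ cells, Slc7a2 lies left of 0 in every gate, and Slc43a3 lies right of 0 in both luminal gates without passing the threshold.

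In basal GFP- cells limma called 0 members, where 0.0602% of all genes were called (0.0451% higher and 0.015% lower). Slc7a1, the arginine and lysine carrier CAT-1, had 7.44, 7.41 and 7.78 in mutant arrays, against 6.52, 6.68 and 5.48 in control arrays. The groups did not overlap, but the difference of 1.32 (95% interval 0.41 to 2.22) had an adjusted p of 0.56. Slc43a3 had 9.67, 10.05 and 10.43 in mutant arrays, against 9.30, 8.97 and 9.003 in control arrays (0.96, adjusted p = 0.834).

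In luminal Sca1- cells the test called 1 member, Slc7a2, where 0.727% of all genes were called (0.557% higher and 0.171% lower). Slc7a2 had 6.44, 6.02 and 7.18 in mutant arrays, against 8.54, 7.69 and 8.81 in control arrays, and the groups did not overlap. It fell by 1.80 ± 0.39 on the log2 scale, 3.48-fold (adjusted p = 0.036). The call was lost without mutant replicate 1 or 2 or control replicate 1 or 3 (-1.75 to -1.54, adjusted p = 0.12 to 0.137), with only the compared groups in the fit, and with replicate number as a block (adjusted p = 0.0575). Basal markers were higher in these mutant arrays, with Krt5 at 8.50 against 5.21 and Krt14 at 8.96 against 6.50 in control arrays. Slc7a2 averaged 5.82 in mutant and 7.24 in control basal GFP+ cells, and the part of basal RNA in its luminal value was not tested. Slc6a6 differed by -0.03 between the mutant and control luminal Sca1- cells (95% interval -0.84 to 0.78).

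Other members of the luminal Sca1- comparison were close to the threshold. Slc38a1 had 4.55, 4.32 and 4.53 in mutant arrays, against 5.57, 6.71 and 5.43 in control arrays (-1.44 ± 0.35, adjusted p = 0.0672), and it was called when dim genes were left out of the fit (adjusted p = 0.0408). Slc1a1 had 8.50, 7.64 and 8.13 in mutant arrays, against 7.43, 5.48 and 7.25 in control arrays (1.37 ± 0.35, adjusted p = 0.084), and was called without control replicate 1 (1.73, adjusted p = 0.0325). Both genes had groups that did not overlap, as had 18.1% of all genes in this comparison. Slc7a11 had 5.48, 5.03 and 6.05 in mutant arrays, against 4.28, 4.68 and 5.05 in control arrays (0.85 ± 0.24, adjusted p = 0.145). It was called without mutant replicate 2 (1.09, adjusted p = 0.0499).

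Slc43a3 had 9.65, 9.61 and 9.61 in mutant luminal Sca1- arrays, against 8.08, 6.40 and 8.71 in control arrays (1.90 ± 0.57, adjusted p = 0.168). In the same arrays Slc6a14 differed by 0.24 (adjusted p = 0.623), and by 0.51 (adjusted p = 0.0305) without control replicate 2, its high array at 4.43.

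In luminal Sca1+ cells the test called 1 member, Slc38a1, where 0.777% of all genes were called (0.401% higher and 0.376% lower). It had 6.61, 4.999 and 5.75 in mutant arrays, against 7.59, 8.11 and 7.40 in control arrays, and the groups did not overlap. It fell by 1.92 ± 0.35 on the log2 scale, 3.77-fold (adjusted p = 0.00844). In the same arrays basal markers averaged 5.40 to 7.34 in mutant and 5.51 to 5.75 in control cells, and progenitor markers 6.11 to 8.33 in mutant and 5.56 to 5.89 in control cells, and their part in the difference was not tested. The call was kept without each of the 6 arrays in turn, and it was lost with only the compared groups in the fit. Slc43a3 had 8.71, 5.70 and 6.99 in mutant arrays, against 4.97, 4.85 and 4.91 in control arrays (2.22 ± 0.57, adjusted p = 0.0974). Slc7a2 had 8.76, 9.11 and 9.27 in mutant arrays, against 10.21, 9.90 and 10.28 in control arrays (-1.08 ± 0.39, adjusted p = 0.358). The difference of the mutant effect between the luminal gates called 0 members (0.161% of all genes, 0.0803% higher and 0.0803% lower).

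The leucine importer did not pass the test between genotypes in any gate. Slc7a5 differed between mutant and control cells by 0.71 in basal GFP+ (95% interval -0.13 to 1.55), 0.37 in basal GFP- (-0.47 to 1.21), 0.49 in luminal Sca1- (-0.35 to 1.33) and 0.01 in luminal Sca1+ cells (-0.83 to 0.86). Slc3a2 differed by 0.20 (-0.33 to 0.72), 0.44 (-0.09 to 0.96), 0.46 (-0.06 to 0.99) and 0.44 (-0.08 to 0.97) in the same gates. The intervals reach changes of more than 2-fold for Slc7a5 in 3 of the gates, so no equality is shown. Slc38a2, the sodium-coupled carrier SNAT2, differed by 0.30 (0.01 to 0.59), 0.04 (-0.25 to 0.33), -0.04 (-0.33 to 0.26) and -0.11 (-0.40 to 0.19). Without control basal GFP+ replicate 2 the basal GFP+ difference was 0.48 and was called (adjusted p = 0.0127). Its spread was small, and every array lay between 10.72 and 11.75. Slc1a5 differed by -0.84, -0.78, -0.53 and -0.21 with adjusted p-values of 0.224 to 1, and Slc1a4 by 0.02, -0.03, 0.02 and -0.87 with adjusted p-values of 0.339 to 0.999.

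Within a genotype, GFP state separated few genes in the basal gate, members or not. Of the members 1.61% were called in each genotype, beside 2.51% of all genes in mutant and 1.25% in control mice. In mutant basal cells GFP+ minus GFP- called 1 member, Slc38a2, where 2.51% of all genes were called (1.77% higher and 0.737% lower). Slc38a2 had 11.55, 11.75 and 11.53 in GFP+ arrays, against 10.72, 10.99 and 10.96 in GFP- arrays, a difference of 0.72 ± 0.14 (adjusted p = 0.00623), and the groups did not overlap. In control basal cells it had 11.29, 11.67 and 10.96 in GFP+ arrays, against 10.77, 10.97 and 10.81 in GFP- arrays (0.46 ± 0.14, adjusted p = 0.112), and the difference between the 2 GFP effects was 0.26 (adjusted p = 0.562). Slc38a2 in mutant basal GFP+ cells also exceeded luminal Sca1+ cells, at 11.06, 10.92 and 11.12, by 0.58 ± 0.14 (adjusted p = 0.00948); that call was lost without mutant basal GFP+ replicate 2 or luminal Sca1+ replicate 2 (adjusted p = 0.054 and 0.052). Slc1a5 ran the other way without a call, with 5.35, 5.48 and 5.35 in mutant GFP+ arrays, against 7.66, 6.25 and 7.46 in mutant GFP- arrays (-1.73 ± 0.47, adjusted p = 0.0629).

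Slc1a5 was called in this comparison when dim genes were left out (adjusted p = 0.0352), with array weights (adjusted p = 0.0305), with replicate number as a block (adjusted p = 0.0432) and without mutant GFP- replicate 2 (-2.16, adjusted p = 0.0258). In control cells it had 6.80, 5.75 and 6.17 in GFP+ arrays, against 9.04, 7.38 and 7.27 in GFP- arrays (-1.66 ± 0.47, adjusted p = 0.0908). All GFP+ arrays lay below all GFP- arrays in the control mice and in the mutant mice. The single call in control basal GFP+ minus GFP- cells (1.25% of all genes were called, 0.507% higher and 0.747% lower) was the dim gene Slc6a4 (0.30, adjusted p = 0.0391). It was lost without control GFP- replicate 1, 2 or 3 or GFP+ replicate 3 (adjusted p = 0.0594 to 0.141) and under quantile normalization (adjusted p = 0.103).

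Against control basal GFP- cells, the other control of the basal gate, mutant basal GFP+ cells had 3 called members, where 3.22% of all genes were called. They were Slc7a6 (1.20), Slc38a2 (0.76, adjusted p = 0.00341) and Slc1a5 (-2.50, adjusted p = 0.00434), and Slc7a6 was the member called against both controls. GFP state and genotype both differ in that comparison.

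Milk secretion genes were compared between genotypes in the same gates. Of 19 measured genes of milk protein and milk fat secretion, 9 rose and 0 fell in mutant basal GFP+ cells (median 0.46), 3 rose in mutant luminal Sca1- cells (median 0.80) and 2 in mutant luminal Sca1+ cells (median 1.58). The 9 genes are 47.4% of the list, beside 12.6% of all genes called in basal GFP+ cells. Over all genes, 0.727% were called in luminal Sca1- (0.557% higher) and 0.777% in luminal Sca1+ cells (0.401% higher). Of the 19, 6 were called against control basal GFP- cells, all higher (31.6%, beside 3.22% of all genes). In basal GFP- cells limma called 0 of them (median 0.23). The β-casein gene Csn2 had 12.28, 10.17 and 10.70 in mutant basal GFP+ arrays, against 5.11, 5.26 and 5.11 in control basal GFP+ arrays (5.90 ± 0.62, adjusted p = 1.12e-05). It averaged 12.51 in mutant luminal Sca1- cells, against 9.07 in control (3.44, adjusted p = 0.00816), and 11.65 in mutant luminal Sca1+ cells, against 5.60 in control (6.05, adjusted p = 1.55e-05). The κ-casein gene Csn3 (5.63) and Mfge8 (3.39), a milk fat globule protein gene, were among the genes that rose in basal GFP+ cells, and against control basal GFP- cells they differed by 2.24 and 1.87, both called. Milk genes rose in the gates in which Slc7a6, Slc7a2 and Slc38a1 were called. In basal GFP+ cells Slc7a6 was higher and Slc7a2 lower, and the single carrier called in each luminal gate was lower. A link between carriers and milk genes was not tested.

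In control mice 12 of the 19 milk genes were higher and 0 lower in luminal Sca1- than in basal GFP- cells (median 2.15), and 0 were higher and 11 lower in luminal Sca1+ than in luminal Sca1- cells (median -2.35). Over all genes, 9.83% were called in the first comparison (4.93% higher) and 3.69% in the second (1.61% lower). Slc1a1 followed the same order of gates, with 4 progenitor markers at array means of 8.82 to 9.62 in control luminal Sca1-, against 5.56 to 5.89 in control luminal Sca1+ arrays. Slc38a1 and Slc7a2 had the opposite order of the luminal gates only. In luminal Sca1- minus basal GFP- cells they were higher, like the milk genes, Slc38a1 by 1.47 with a call and Slc7a2 by 1.09 without a call.

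The PI3K and mTORC1 list held 25 measured genes, of which 4 rose and 2 fell in mutant basal GFP+ cells (median 0.20), 24% of the list beside 12.6% of all genes. None was called between genotypes in the other 3 gates. Pik3ca had 7.94, 7.84 and 8.42 in mutant basal GFP+ arrays, against 6.86, 7.29 and 6.78 in control basal GFP+ arrays (1.09 ± 0.21, adjusted p = 0.00435), and whether its probe set reads the transgene was not tested. Against control basal GFP- cells, which had 7.94, 7.55 and 7.57, the mutant arrays overlapped. The other subunit genes Pik3cb (1.60) and Pik3r3 (2.39) rose, and the insulin and IGF1 signalling genes Igf1r (-2.03) and Irs1 (-1.45) fell in mutant basal GFP+ cells. Against control basal GFP- cells the list had 3 calls, Pik3cb, Pik3r3 and Igf1r (12%, beside 3.22% of all genes), and Irs1 differed by -0.64 (adjusted p = 0.516). In luminal Sca1- cells Pik3ca had 7.83, 8.02 and 7.86 in mutant arrays, against 7.18, 7.02 and 6.80 in control arrays (0.90 ± 0.21, adjusted p = 0.0593).

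Among 26 genes of lysosomal amino acid sensing, 5 rose and 1 fell in mutant basal GFP+ cells (median 0.22), 23.1% of the list beside 12.6% of all genes, and no call was made between genotypes in the other gates. Those that rose were Sesn3 (3.41), a sestrin, the Ragulator subunit gene Lamtor2 (2.25), Sec13 (1.38), Fnip1 (1.21) and the transcription factor gene Tfe3 (0.91), and Wdr24 (-0.52) fell. Against control basal GFP- cells Sesn3 (2.86) and Tfe3 (1.06) were called (7.69% of the list, beside 3.22% of all genes). Lamtor2 (0.54, adjusted p = 0.52), Sec13 (0.996, adjusted p = 0.125), Fnip1 (0.96, adjusted p = 0.144) and Wdr24 (-0.22, adjusted p = 0.457) were not. Slc38a9, the lysosomal arginine sensor and itself one of the transporters, was called in no comparison.

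The amino acid response list held 26 measured genes known as ATF4 targets, without the transporters. In mutant basal GFP+ cells 3 rose and 1 fell (median 0.29): the lipoprotein receptor gene Vldlr (2.58) and the serine synthesis genes Psat1 (2.22) and Psph (1.08) rose, and Nupr1 (-1.84) fell. These 4 are 15.4% of the list, near the 12.6% of all genes. Vldlr (2.20) and Psat1 (1.43) were also called against control basal GFP- cells, and Psph (0.50, adjusted p = 0.502) and Nupr1 (-0.63, adjusted p = 0.526) were not. In luminal Sca1- cells 0 rose and Stc2 fell (-2.57), where 0.727% of all genes were called, with a median of 0.51 over the list. Asns, asparagine synthetase, had 8.66, 9.60 and 9.22 in mutant luminal Sca1- arrays, against 7.60, 8.92 and 6.76 in control arrays, and the groups overlapped (1.40 ± 0.51, adjusted p = 0.295). Atf4 itself differed by -0.04 there (adjusted p = 0.968) and by 0.36 in basal GFP+ cells (adjusted p = 0.197). Within mutant mice Asns was higher in luminal Sca1- than in basal GFP+ cells by 1.94 ± 0.51 (adjusted p = 0.0226), the comparison in which Slc7a11 was called. Of the list, 7 genes were higher and 1 lower in that comparison (median 0.47), and 7 were higher and 0 lower in the control comparison (median 0.57), where Slc7a11 differed by 0.16 (adjusted p = 0.792). Over all genes, 7.86% were called in the mutant comparison (3.62% higher) and 9.83% in the control comparison (4.93% higher).

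For glutathione and glutamine use, 14 genes were measured. Of these, 1 rose in mutant basal GFP+ cells, Gclc (2.06, adjusted p = 0.0177), a subunit of the enzyme that joins glutamate and cysteine (7.14% of the list, beside 12.6% of all genes), and 0 were called between genotypes in the other gates. Gclc was not called against control basal GFP- cells (1.66, adjusted p = 0.0963). Luminal Sca1+ cells had 5 higher and 0 lower than basal cells in mutant mice (median 0.38) and 5 higher and 0 lower in control mice (median 0.67). Over all genes, 9.72% were called in mutant mice (4.73% higher) and 13.1% in control mice (7.35% higher).

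Within the 4 gates no member of the SLC1 family was called between genotypes, nor any of the 2 heavy chain genes, the 3 SLC43 genes or the 7 SLC6 carriers of neutral and broad range. Slc43a1 and Slc43a2, facilitated carriers of large neutral amino acids, were called in no group pair, and neither was Slc7a8, the light chain LAT2, which was dim on every array (3.68 to 4.46). The creatine transporter gene Slc6a8 and Slc38a10 were not dim and had group means within 0.80 and 0.81 of each other, with no call. The light chain gene Slc7a7, known as y+LAT1, varied over 1.34 between group means without a call. Of the 43 dim members, 10 were called in at least 1 pair and 33 in none. Of all genes, dim or not, 30.7% were called in at least 1 pair, and of those at or above the dim threshold 42.3%.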

How the data were processed

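Each of the 24 arrays was an Affymetrix mouse Gene 1.0 ST array hybridised with amplified cDNA from RNA of 250 sorted cells, per the labels' protocols. The deposited values are log2 intensities per probe set, 1 column per array, and their scale was taken from the values, which lay between 2.59 and 13.54. The submitters' processing notes name affy, and its version, background correction, normalization and summarization are not given in the sources used here.

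The platform annotation gave a single symbol to 21640 of 34760 probe sets, and the other 13120 were left out. The probe set with the highest mean was kept where a gene had several (954 of 19937 genes, among them Slc38a1 and Slc38a9). The 8 group means were estimated together in limma 3.58.1 under R 4.3.3, leaving 16 residual degrees of freedom. Tests were two-sided and adjusted by Benjamini-Hochberg within each of 12 group pairs and 3 differences of effects, and the code was tested on simulated data. The ± beside a difference is its standard error. Replicates came from glands pooled at each sorting; the p-values reflect the spread between these pools, and 3 arrays a group limit the precision.

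By rule, the text names up to 8 called members each way with the smallest p per comparison, 15 carriers always given (Slc7a5, Slc3a2, Slc1a5, Slc38a2, Slc7a11, Slc1a1, Slc1a4, Slc38a1, Slc6a6, Slc6a14, Slc7a1, Slc7a2, Slc7a8, Slc43a1 and Slc43a2), up to 4 called genes of each companion list, and always Pik3ca, Csn2, Asns and Atf4. Other genes were named after their values were seen. The members and lists were chosen with earlier results of these data known. Alternatives were quantile normalization, dim genes left out, the mean of a gene's probe sets, array weights, only the compared groups in the fit, replicate number as a block, each array left out in turn, the control basal GFP+ arrays left out, and control basal GFP- cells as the control of mutant basal GFP+ cells.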

Additional observations from a re-analysis of the deposited data

Results flagged for a closer look

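The effect of the mutant on Slc7a6 differed between gates by a test of the difference itself. It was larger in basal GFP+ than in basal GFP- cells by 1.86 on the log2 scale (adjusted p = 0.0294, limma), and in luminal Sca1- minus basal GFP+ cells it differed by -2.16 (adjusted p = 0.0102). Both differences use the control basal GFP+ arrays, which stood apart from the other groups. GFP marks Lgr5 alone in those cells, so both differences also mix genotype with what GFP marks. Mutant basal GFP- cells, which enter the first difference, lacked the GFP that marks the transgene. These were the only members called among the 3 differences of effects tested, where 1.07%, 0.161% and 1.03% of all genes were called.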

How the results depend on the processing

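Of the 52 calls of named members, 15 were kept in every alternative that applied, among them Slc7a6 in mutant minus control basal GFP+ cells, and 1 changed sign: Slc6a12 in mutant basal GFP+ cells was 0.0216 above control basal GFP- cells, against -0.29 relative to control basal GFP+ cells. A further 25 values were called only in some alternative. The count of called members in mutant minus control basal GFP+ cells (7 as reported) was 2 under quantile normalization, 2 with dim genes left out, 1 with only the compared groups in the fit and 3 against control basal GFP- cells. In luminal Sca1- cells the 1 call became 2 with dim genes left out, 0 with only the compared groups and 0 with replicate number as a block, and in luminal Sca1+ cells 0 with only the compared groups. With only the compared groups, counts were also 1 in place of 5 (control luminal Sca1- minus basal), 4 in place of 10 (control Sca1+ minus basal), 0 in place of 4 (control Sca1+ minus Sca1-), 4 in place of 8 (mutant Sca1+ minus basal), 2 in place of 5 (mutant Sca1+ minus Sca1-), and 0 in place of 1 for both called differences of effects; fewer arrays and degrees of freedom enter that fit. Array weights gave 10 in place of 5 in mutant Sca1+ minus Sca1- cells. The 1 call of control basal GFP+ minus GFP- cells became 0 under quantile normalization, dim filtering, array weights and the compared groups alone. The 1 call of mutant basal GFP+ minus GFP- cells became 2 under quantile normalization, 3 with dim genes left out, 6 with array weights, 3 with the replicate block and 3 without the control basal GFP+ arrays. The basal difference of effects became 0 under quantile normalization. The cause of these changes in counts was not tested. Leaving out 1 array at a time gave 2 to 11 calls for mutant minus control basal GFP+ cells, 0 for basal GFP-, 0 to 2 for luminal Sca1- and 1 to 2 for luminal Sca1+ cells. It gave 5 to 6, 7 to 11 and 3 to 6 for the control luminal Sca1- minus basal, Sca1+ minus basal and Sca1+ minus Sca1- comparisons, and 5 to 7, 5 to 7 and 2 to 4 for the mutant ones. It gave 0 to 4 and 1 to 3 for GFP+ minus GFP- in control and mutant basal cells, and 0 to 2, 0 and 1 to 2 for the 3 differences of effects. The block ended 1 call of a named member (Slc7a2 in luminal Sca1- cells) and added 3. Replicate number is not stated to mark a shared sorting, and only 3, 3 and 0 of 28 pairs of arrays with the numbers 1, 2 and 3 had deviations from their group means that correlated over 0.1, so it was not taken to pair the samples. Still, 17 of 24 arrays correlated best with an array of their own number, which is a hint from the data. Limits are the 3 arrays a group, the amplification of RNA from 250 cells, the unknown normalization, and dim members, whose differences may be compressed near background.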

Other observations

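Slc38a4, a sodium-coupled carrier known from liver and placenta, was dim and was called in no comparison. It had 4.29, 4.98 and 4.86 in mutant basal GFP+ arrays, against 4.14, 7.08 and 4.17 in control basal GFP+ arrays, of which replicate 2 was the high array. Slc36a1, a proton-coupled carrier of the lysosome, had 4.20, 5.51 and 4.11 in mutant basal GFP+ arrays, against 4.34, 4.19 and 4.21 in control basal GFP+ arrays, so that 1 mutant array was high. Both genes were picked out after their values were seen.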
